A study of Mus musculus with 8 samples.

Results

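The cells described here are E8.5 cells of Tet-TKO chimaeras that carried a transcript signature of intermediate mesoderm. They were selected on their own UMIs (unique molecular identifiers, each counting 1 captured mRNA molecule). A member had at least 1 UMI of at least 2 of the genes Osr1, Wt1, Pax8 and Lhx1, and no UMI of Foxf1, T, Foxa2 or Tbx6. Of 37211 kept cells at E8.5, 250 met this rule (0.672%). Tet-TKO libraries 1 to 4 held 43, 67, 40 and 16 of them, and the 2 WT host libraries 24 and 60.

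The study asked how the loss of the TET dioxygenases, which oxidise methylated cytosine, affects early organogenesis. Tet triple-knockout ES cells (Tet1, Tet2 and Tet3) of a C57BL/6J-129Sv background, labelled with H2B-tdTomato under a CAG promoter, were injected into wild-type C57BL/6J blastocysts and carried by CD1 recipients. At E8.5, pooled chimaeras were dissociated and sorted into tdTomato-positive Tet-TKO cells (4 libraries) and tdTomato-negative WT host cells (2 libraries), and each library was measured by 10x Genomics 3′ single-cell RNA-seq. The host cells carry no reporter and no Tet deletion, but they developed in the same embryos as the mutant cells. Strain, reporter and genotype go together in each comparison and cannot be told apart, and the mutant cells come from 1 ES cell line. The labels do not say whether the libraries of a group came from separate pools, so p-values measure the spread between libraries, which may be technical.

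The E8.5 libraries held 65601218 to 136982886 UMIs. Tet-TKO libraries 3 and 4 stood apart by depth, with a median of 40387 and 68704 UMIs per kept cell against 12176 to 18763 in the other 4 libraries, and they held fewer kept cells (2304 and 1012 against 7045 to 9552). Any pair of the 6 E8.5 libraries shared between 0 and 26 cell barcodes, at most 0.434%. At least 1 tdTomato UMI was present in 74.4%, 56.7%, 92.5% and 93.8% of the members of Tet-TKO libraries 1 to 4. Only 1 member of WT host library 1, and no member of WT host library 2, had one.

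Intermediate mesoderm is the strip between the somites and the lateral plate. It gives rise to the nephric duct, the successive kidneys and much of the gonad. Osr1 is among its earliest markers, the LIM factor Lhx1 and the paired-box factors Pax2 and Pax8 are needed for the nephric duct, and Wt1 acts in kidney and gonad precursors. Osr1 is also found in lateral plate mesoderm, and Foxf1 marks the lateral plate, so the rule excluded cells with Foxf1 and with genes of the primitive streak, notochord and presomitic mesoderm.

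The condition on excluded genes set the size of the population. At E8.5, 1275 kept cells had at least 2 of the 4 markers, and 1025 of them (80.4%) held an excluded gene. Foxf1 was present in 954 of those, and was the excluded gene in 733 with none of the others. T was present in 208, Tbx6 in 87 and Foxa2 in 59. Just outside the rule lay 1764 cells with 1 marker and no excluded gene, and 169 cells that were left out for a single UMI of an excluded gene. Just inside it lay 68 members with 1 UMI each of 2 markers. Only 18 members had 3 or more markers.

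Most members were cells with Osr1 and Lhx1. This pair alone made up 186 of the 250 members (74.4%), with 36, 54, 28 and 11 of them in the Tet-TKO and 18 and 39 in the WT host libraries. Lhx1 was present in 236 members, Osr1 in 216, Wt1 in 41 and Pax8 in 26. The Pax8 members were unevenly spread, with 1, 4, 3 and 3 in the Tet-TKO libraries, none in WT host library 1 and 15 in WT host library 2. Levels followed the selection and are given as a description, in CPM (a gene's UMIs per 1000000 UMIs of all members of a library). Osr1 stood at 90.8, 127, 51.6 and 47.7 CPM in Tet-TKO members and at 165 and 165 CPM in WT host members. Lhx1 stood at 151, 165, 96.7 and 88.7 CPM in Tet-TKO and at 151 and 141 CPM in WT host members. Cells of greater depth pass the rule with a lower CPM, and the lowest levels of Osr1, Wt1 and Lhx1 were in the deep Tet-TKO libraries 3 and 4.

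The marker combinations differed in their other genes. Of the 186 members with Osr1 and Lhx1 alone, 136 had a UMI of Aldh1a2, the retinaldehyde dehydrogenase that makes retinoic acid, 106 had Prrx1, 102 had Foxc1 and 101 had Gata6. Pax2 was present in 10 of them. Of the 26 members with Pax8, 14 had Pax2, the partner of Pax8 in nephric lineage specification, and 8 had Aldh1a2. Pax2 and Pax8 also mark the midbrain-hindbrain boundary and the otic placode, and 18 of the 26 Pax8 members (69.2%) had a UMI of Sox2, Sox3 or Epcam, genes of neural or epithelial cells. Among members with Osr1 and Lhx1 alone, 28 of 186 (15.1%) did. Only 4 Pax8 members had Pax2 and none of these 3 genes. En1, a midbrain-hindbrain factor, was present in 6 of the 26 Pax8 members. The 38 members with Wt1 and without Pax8 had no Pax2 UMI, 19 had Aldh1a2 and 20 had Gata6. A UMI of Sox2, Sox3 or Epcam was present in 19 of them (50%), most often of Epcam (14). Of the 6 genes of proepicardium and septum transversum, Hand2 was present in 13, Sema3d in 5, Tbx18 and Upk3b in 4 each, Gata4 in 3 and Tcf21 in 1.

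The label was checked against 8 markers of intermediate mesoderm that the rule did not use (Pax2, Emx2, Gata3, Sim1, Eya1, Sall1, Foxc1 and Foxc2). Since the members were cut from the same cells, these levels are a description. The 8 genes summed to 145 to 179 CPM in Tet-TKO members and to 179 and 175 CPM in WT host members, against 68.1 to 93.9 and 65.4 and 63.9 CPM in the other kept cells of these libraries. Sim1, Foxc1 and Foxc2 were higher in members than in other cells in 6 of 6 libraries. Foxc1, a forkhead factor of paraxial and intermediate mesoderm, stood at 44.3, 45.8, 52.1 and 47.0 CPM in Tet-TKO and 33.5 and 58.3 CPM in WT host members, with 11.7 to 17.1 CPM in other cells. All 6 member values lay above all values of the other cells. Pax2 was at 2.27, 3.62, 5.01 and 12.9 CPM in Tet-TKO members and 11.2 and 18.3 CPM in WT host members, and exceeded the other cells (3.88 to 5.69 CPM) in 3 of 6 libraries. Gata3, Eya1, Emx2 and Sall1 did so in 5 of 6. Foxc1, Foxc2 and Sim1 thus went with the label in each library and the nephric duct marker Pax2 did not. Sim1 was low, at 2.27, 2.41, 3.51 and 3.79 CPM in Tet-TKO and 8.37 and 1.14 CPM in WT host members. The somite genes Meox1 and Tcf15 had higher median ratios to other cells (6.58 and 5.01) than Foxc1 and Foxc2 (3.58 and 3.57). The cells are therefore called members below.

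To compare detection at equal depth, each cell was thinned to 5000 UMIs. Osr1, whose higher share in members follows from the rule, then had a UMI in 46.1% of members, 3.44% of other cells and 0.192% of erythroid-gated cells (cells with at least 10% haemoglobin UMIs), which should lack it. Foxc1 was detected in 22.0%, 5.29% and 0.528% of the same 3 sets, and Pax2 in 4.08%, 2.47% and 0.0960%. Both Pax2 shares lay above that of the erythroid-gated cells, and 10 of the 245 members with at least 5000 UMIs had a Pax2 UMI after thinning. Median depths before thinning were 15739, 15015 and 16323 UMIs.

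Genes were ranked by the lowest of their 6 ratios of members to other cells, 1 per library, among 6252 genes compared with the 8 rule genes left out. Grem1, a secreted BMP antagonist of limb and kidney mesenchyme, led with a ratio of at least 4.68 in each library and a median of 7.17. The tight-junction gene Cldn11 followed (at least 4.18, median 8.45), then the forkhead gene Foxp2 (at least 3.50). Meox1, a homeobox gene of somites, was next, at 39.7, 60.3, 82.2 and 70.5 CPM in Tet-TKO and 92.1 and 67.5 CPM in WT host members, against 4.40 to 22.6 CPM in other cells. Arg1, Foxc1, Rdh10, Nr2f1, Foxd1 and Aldh1a2 completed the first 10. Rdh10 and Aldh1a2 encode consecutive enzymes of retinoic acid synthesis. Aldh1a2 was at 149, 184, 74.1 and 97.8 CPM in Tet-TKO and 273 and 134 CPM in WT host members, against 20.5 to 41.3 CPM in other cells. The lowest ratios were sought among genes with at least 20 CPM in the other cells of each library. Of these, the hindlimb and caudal gene Pitx1 was lowest, with a ratio of at most 0.104 in each library. Cdx2, a caudal homeobox gene, had a ratio of at most 0.364. The rule left out cells with T or Tbx6, so low caudal genes may follow from the selection.

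**Figure D1:**
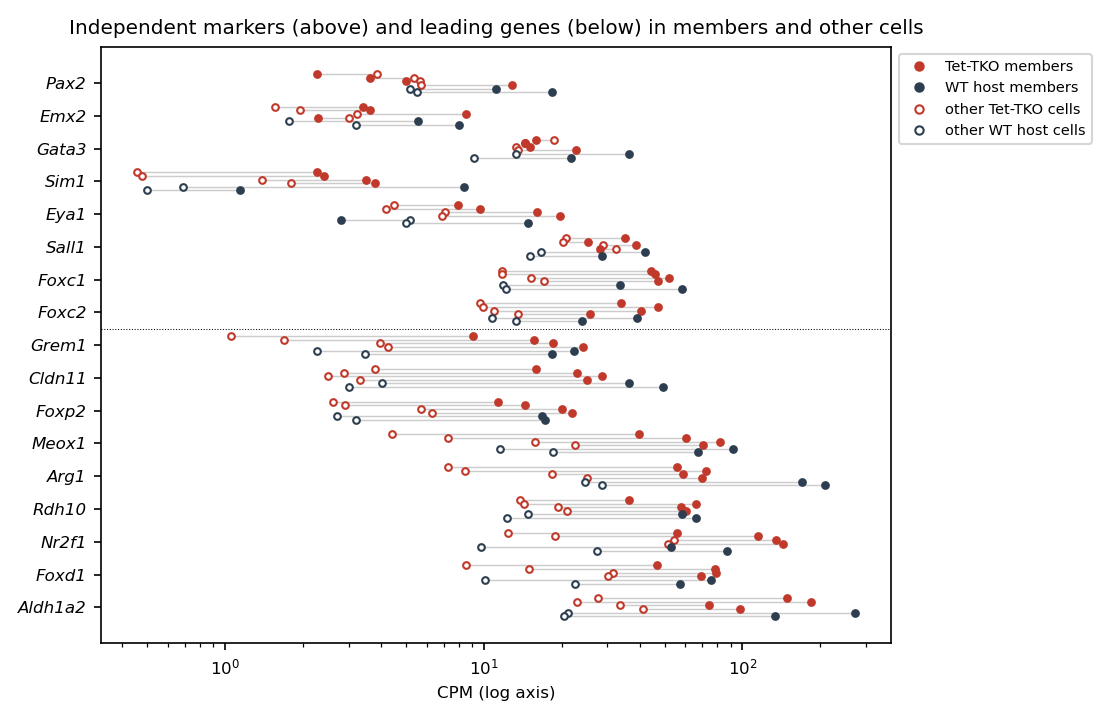
Levels (CPM, log axis) of 8 intermediate mesoderm markers outside the rule (above the dotted line) and of 9 leading genes (below it), for summed members (filled) and other kept cells (open), 1 point per library. Filled points of Foxc1, Foxc2 and the leading genes lie to the right of the open point of the same library, while those of Pax2 lie on either side.

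Relative to other kept cells, members had an anterior trunk Hox profile. The rule left out cells with T, Tbx6 or Foxf1, so the profile may follow in part from the selection and is a description. Hox genes of paralogue groups 1 to 5 (15 genes) summed to 413, 482, 386 and 367 CPM in Tet-TKO and 497 and 543 CPM in WT host members, against 252 to 336 and 168 and 173 CPM in other cells. Hoxa2, Hoxb2, Hoxb3 and Hoxa5 were among those higher than in other cells in 6 of 6 libraries. Groups 9 to 13 (16 genes) went the other way. They summed to 46.5, 66.3, 34.1 and 37.1 CPM in Tet-TKO and 22.3 and 36.6 CPM in WT host members, against 185 to 241 and 113 and 105 CPM in other cells, and 11 of the 16 genes were lower in 6 of 6 libraries.

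**Figure D2:**
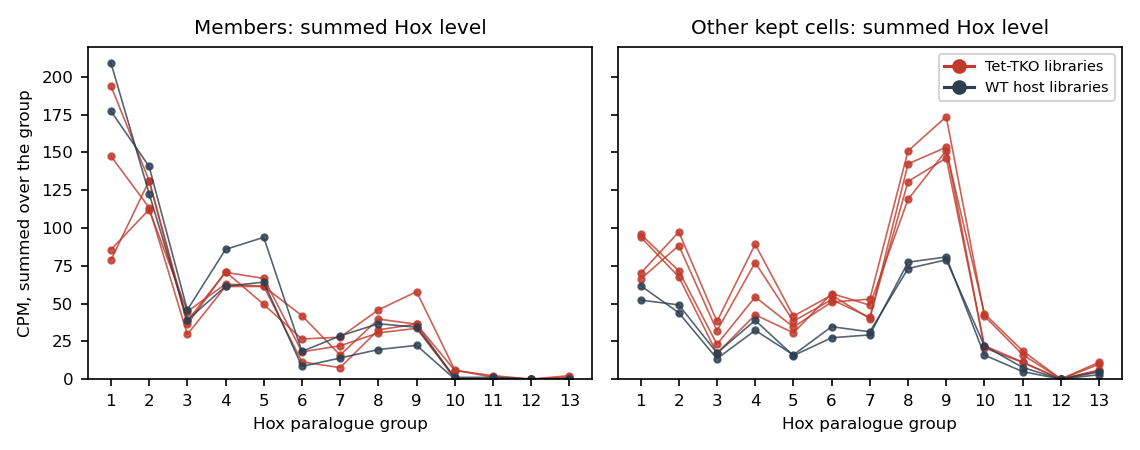
Summed level (CPM) of the Hox genes of each paralogue group in members (left) and other kept cells (right), 1 line per library. In members the levels are highest in groups 1 and 2 and lower from group 6 on, whereas other cells have their highest levels in groups 8 and 9.

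Markers of neighbouring tissues were also measured. The somite list (7 genes) summed to 169 to 211 CPM in Tet-TKO and 246 and 103 CPM in WT host members, against 26.4 to 80.7 CPM in other cells, with Myf5 at 0. Its sum came mainly from Meox1 and Tcf15. Of the 10 lateral plate markers, Hand1, Gata4, Tbx20 and Bmp4 were lower in members in 6 of 6 libraries and Prrx1, a limb mesenchyme factor, was higher in 6 of 6. Hand2 was higher in 4 of 6, Gata6 and Isl1 in 2 of 6, and Foxf2 and Tbx5 in 1 of 6. The rule left out cells with a Foxf1 UMI, so low lateral plate levels may follow from the selection and are a description. All 5 endothelial markers were lower in 6 of 6 libraries. The 5 cardiomyocyte markers summed to 134, 12.1, 1646 and 9.85 CPM in Tet-TKO and 25.1 and 209 CPM in WT host members. The high value in Tet-TKO library 3 came largely from Myl7 (815 CPM), Tnnt2 (446 CPM) and Ttn (324 CPM). Haemoglobin genes summed to 958, 43.4, 326 and 10.6 CPM in Tet-TKO and 1468 and 9691 CPM in WT host members, below the other cells in 5 of 6 libraries. The part of these cardiac and haemoglobin UMIs in the genotype comparison was not tested. Barcodes were ranked by Scrublet score, and a share set beforehand, 0.8% for each 1000 barcodes of a library, was marked as likely doublets. In the Tet-TKO libraries this marked 417 of 7221, 761 of 9751, 53 of 2563 and 12 of 1238 barcodes. In the WT host libraries it marked 630 of 8873 and 725 of 9521. Of the 250 members 12 were marked, and the true number of doublets was not measured.

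After thinning to 5000 UMIs, the share of members was higher in each Tet-TKO library than in either WT host library. However, a test of 4 against 2 libraries cannot pass 0.05, and the order depended on thinning depth and on how thinned cells were counted. Thinned to 10000 UMIs, Tet-TKO library 1 (0.608%) lay below WT host library 2 (0.681%), and the groups overlapped (exact permutation p = 0.20). Without thinning, members made up 0.610%, 0.701%, 1.74% and 1.58% of the kept Tet-TKO cells by library, and 0.291% and 0.664% of the kept WT host cells. Deeper cells meet the rule more easily, so the test used cells thinned to 5000 UMIs. The shares were then 0.385% (26 of 6761 cells), 0.443% (40 of 9035), 0.808% (18 of 2228) and 1.19% (11 of 921) in Tet-TKO, and 0.260% (20 of 7707) and 0.361% (30 of 8314) in WT host libraries. The groups did not overlap, but Tet-TKO libraries 1 and 2 lay close to WT host library 2. The mean was 0.707% ± 0.375 (SD, n = 4) against 0.310% ± 0.0717 (SD, n = 2), a difference of 0.397 percentage points (two-sided exact permutation p = 0.133, where the smallest p this design allows is 0.0667). With Tet-TKO libraries 3 and 4 left out, the difference was 0.103 percentage points. Thinning can also remove the UMI of an excluded gene, and 61 of the 145 thinned members did not meet the rule with all their UMIs. Counting only the other 84, an alternative chosen after seeing the data, the shares were 0.163%, 0.299%, 0.359% and 0.326% in Tet-TKO and 0.143% and 0.289% in WT host libraries, and the groups overlapped (difference 0.0709 percentage points, exact permutation p = 0.40). Without the erythroid-gated cells, which numbered 454 and 1699 in the WT host libraries and at most 11 in a Tet-TKO library, 2 of 4 Tet-TKO libraries lay above both WT host libraries (exact permutation p = 0.267). Fewer members and less RNA of the rule genes per cell cannot be told apart here.

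**Figure D3:**
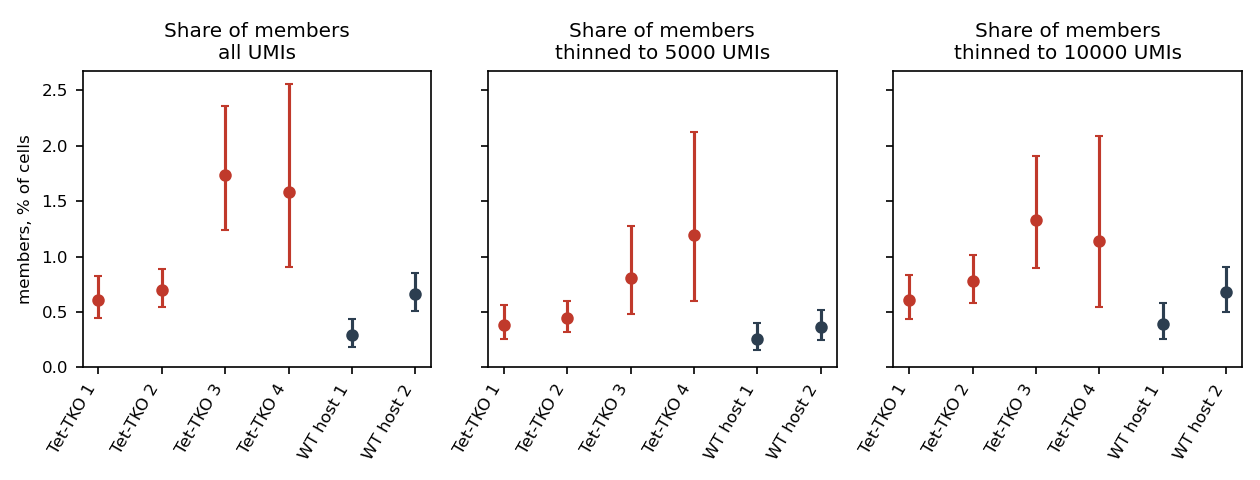
Members as a percentage of cells in each library, with all UMIs (left) and after thinning each cell to 5000 (middle) or 10000 UMIs (right), with 95% exact binomial intervals that cover counting error only. At 5000 UMIs the Tet-TKO libraries lie at 0.385% to 1.19% and the WT host libraries at 0.260% and 0.361%, and the intervals of Tet-TKO libraries 1, 2 and 3 overlap that of WT host library 2. At 10000 UMIs Tet-TKO library 1 (0.608%) lies below WT host library 2 (0.681%).

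Expression in Tet-TKO and WT host members was compared on UMIs summed per library with the quasi-likelihood test of edgeR. Of 7638 genes tested, 16 passed both thresholds (adjusted p under 0.01, and a log2 fold change of at least 1 in either direction). They were 11 higher genes (0.144% of those tested) and 5 lower genes (0.0655%), and 589 genes (7.71%) had an unadjusted p under 0.05. This balance moved with the processing. With the rule on cells thinned to 5000 UMIs 4 were higher and 7 lower, of only 2177 genes that could be tested. With DESeq2 the numbers were 17 and 13. At an adjusted p of 0.05 with no minimum fold there were 18 and 18. Summed levels do not separate a change in each cell from a change in the mix of cells. The called genes included copies of ribosomal protein genes, genes that mark the sorted fraction, a globin gene and an imprinted gene. Leaving out WT host library 1 left 7 calls and leaving out WT host library 2 left 4, with the remaining WT host library assumed to vary like the Tet-TKO libraries.

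Copies of ribosomal protein and other genes were among the called genes. The ribosomal protein gene Rps3a1 (chr3:86137940-86142702 in mm10) was at 239, 478, 252 and 491 CPM in Tet-TKO and 5226 and 4603 CPM in WT host members, and its near-identical copy Rps3a3 at 4710, 4079, 4025 and 3830 against 64.2 and 9.15 CPM. The first was lower (log2 fold change -3.73 ± 0.27 SE, edgeR adjusted p = 4.5e-05) and the second higher (7.21, adjusted p = 4.3e-05), while their sum was 4949, 4558, 4277 and 4321 CPM in Tet-TKO and 5290 and 4612 CPM in WT host members. Reads of such copies can be assigned to either, so neither value is certain alone. The pseudogene Rps13-ps1 had 610 UMIs in Tet-TKO members and 0 in WT host members, at least 49.9-fold higher against a floor of 3 counts over the group. Rps15a-ps8 (709 against 2 UMIs, ratio 86.9, 95% exact interval 24.0 to 719, which like those below pools the UMIs of a group and covers counting error only) and Eif3j2, a copy of a translation initiation factor gene (261 against 2 UMIs, ratio 32.0, interval 8.77 to 266), were called too. The predicted genes Gm15459 (201 against 0 UMIs, at least 16.4-fold higher) and Gm10036 (190 against 3 UMIs, ratio 15.5, interval 5.23 to 76.0) and the gene BC002163 (log2 fold change 3.31 ± 0.40 SE) were called higher as well. The calls of Gm10036 and BC002163 were lost without either WT host library, that of Gm15459 also without Tet-TKO library 1, and those of Rps13-ps1 and Eif3j2 without WT host library 2.

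Wdfy1, Spata7, Arg1 and Plac8 were called outside the gene copies, imprinted genes and genes that mark the sort or blood. Wdfy1, which encodes an endosomal adaptor, was at 37.4, 42.2, 38.1 and 30.3 CPM in Tet-TKO and 2.79 and 1.14 CPM in WT host members (184 against 2 UMIs, ratio 22.6, exact interval 6.16 to 188). Spata7, a gene of the photoreceptor cilium, was at 78.3, 105, 145 and 140 CPM against 19.5 and 22.9 CPM (log2 fold change 2.46 ± 0.31 SE, edgeR adjusted p = 0.0034). Arg1, the arginase of the urea cycle and itself a leading gene of the members, was at 55.6, 72.3, 59.1 and 69.7 CPM in Tet-TKO and 170 and 209 CPM in WT host members (-1.56 ± 0.18 SE, adjusted p = 0.0019). Each Tet-TKO library was below both WT host libraries, as in 11% of all genes tested. Wdfy1, Spata7 and Arg1 lost the call without either WT host library. Plac8, a small cysteine-rich protein gene, was at 4.54, 8.44, 3.01 and 7.58 CPM against 103 and 38.89 CPM (-3.53 ± 0.48 SE, adjusted p = 0.0064). Its call was lost without Tet-TKO library 1, without either WT host library, and among members with Osr1 and Lhx1 alone (-2.21, adjusted p = 0.32).

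The remaining calls were tdTomato, Xist, Hbb-y and Snrpn. tdTomato checks the sort and stood at 123, 90.4, 157 and 152 CPM in Tet-TKO and at 2.79 and 0 CPM in WT host members. Its call was lost without WT host library 2. Xist, the RNA that silences an X chromosome in female cells, was at 0, 3.62, 1.50 and 30.3 CPM in Tet-TKO and 313 and 430 CPM in WT host members (-5.31 ± 0.67 SE, edgeR adjusted p = 0.0033). The call was lost without WT host library 1 (adjusted p = 0.048), without WT host library 2 (0.21) and with DESeq2 (0.29). Hbb-y, an embryonic beta-like globin, was at 1.13, 4.82, 3.51 and 1.52 CPM against 232 and 1714 CPM (-8.41 ± 0.71 SE, adjusted p = 0.00014). It remained called with each library left out in turn, while the WT host libraries also held most erythroid-gated cells (454 and 1699) and its level in their other cells was 1932 and 9379 CPM.

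**Figure D4:**
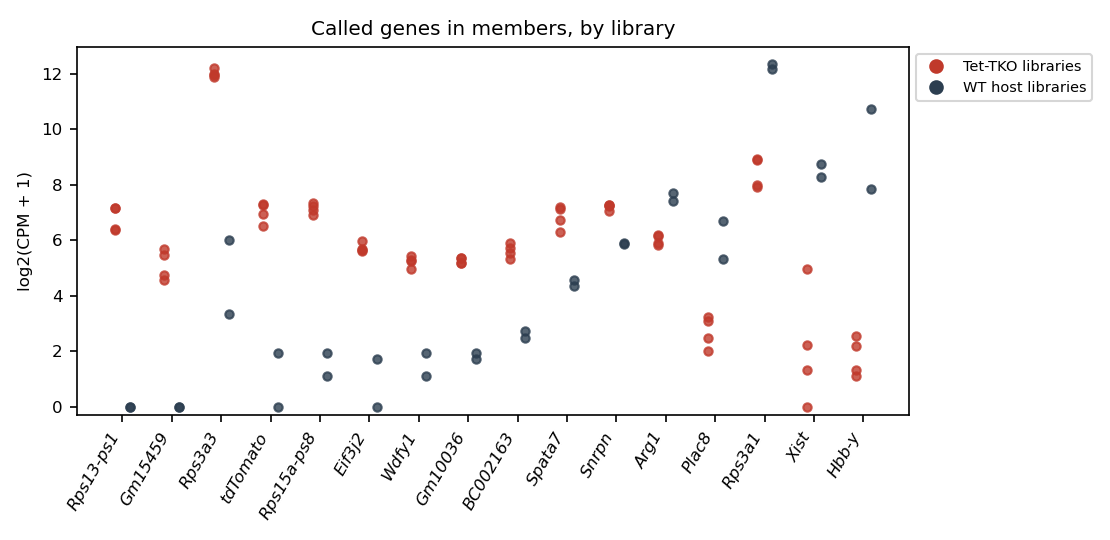
Level, log2(CPM + 1), of the 16 genes called between Tet-TKO (red) and WT host (dark) members, 1 point per library. For each gene the 4 Tet-TKO libraries lie on one side of the 2 WT host libraries, with Rps3a3 and Rps3a1 in opposite directions.

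Of the 12 gene lists, that of imprinted genes had 1 called member among 24 tested. The others, with 0 to 19 genes tested each, had 0. Over all genes tested 0.209% were called, so counts this small do not tell the lists apart. Imprinted genes are expressed from 1 parental allele under the control of DNA methylation. Snrpn (chr7:59982495-60140219, minus strand, mm10), normally expressed from the paternal allele, was at 155, 152, 133 and 152 CPM in Tet-TKO and 58.6 and 57.2 CPM in WT host members (1.38 ± 0.20 SE, edgeR adjusted p = 0.0084). It kept the call in 1 of the 6 fits that leave out a library, that without Tet-TKO library 3. Zdbf2, on chromosome 1, was at 99.8, 108, 157 and 136 CPM against 30.7 and 48.0 CPM (1.62 ± 0.25 SE, adjusted p = 0.014) and was not called. Cdkn1c, a cell cycle inhibitor, was at 230, 176, 371 and 273 CPM against 72.5 and 135 CPM (1.30 ± 0.29 SE, adjusted p = 0.13), and Nnat at 219, 225, 252 and 264 CPM against 167 and 108 CPM (0.87 ± 0.20 SE, adjusted p = 0.13). Neither passed the test. Of the 24 imprinted genes tested, out of 27 listed, 12 had an unadjusted p under 0.05, against 7.71% of all genes tested. In 10 each Tet-TKO library was above both WT host libraries, and in 2 (H19 and Grb10) below both. Over all genes tested these shares were 8.04% and 11%. The median log2 fold change was 0.37 for the list and 0.02 over all genes.

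**Figure D5:**
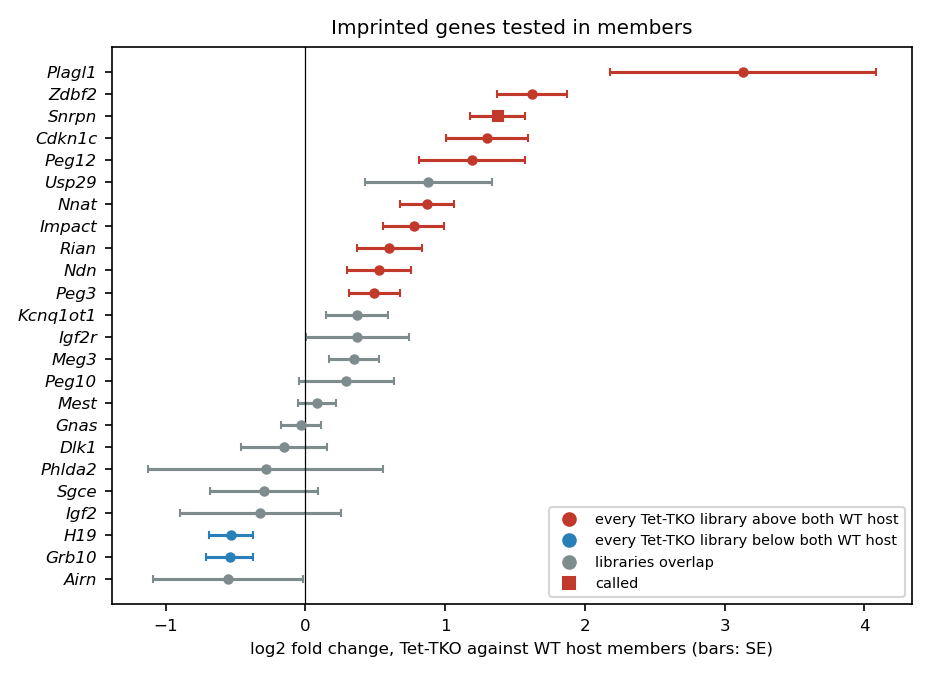
Log2 fold change (Tet-TKO against WT host members, bars are SE) of the 24 imprinted genes tested. The 10 genes in red had each Tet-TKO library above both WT host libraries, the 2 in blue below both, the other 12 in grey had overlapping libraries, and the square marks Snrpn, the 1 called gene.

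The promoters of 3 called genes are shown as a description of their CG content, and a link to TET action was not tested. In the cell types it profiled, the paper reported demethylation that needed TET at distal elements, with negligible effects at promoters. The promoter table held 6 of the 16 called genes. Shown are both higher ones, Spata7 and Snrpn, and Rps3a1, which had a larger fold change than Plac8, while Plac8, Xist and Hbb-y are not shown. The sequences were taken from RefSeq (GRCm38.p6), from 250 bases before to 50 after a transcript start, with CG in capitals. Snrpn has 4 starts in the table, of which the one with the most CG is printed. It lies within the interval of the gene given above.
Spata7 (chr12:98627892-98628191, plus strand): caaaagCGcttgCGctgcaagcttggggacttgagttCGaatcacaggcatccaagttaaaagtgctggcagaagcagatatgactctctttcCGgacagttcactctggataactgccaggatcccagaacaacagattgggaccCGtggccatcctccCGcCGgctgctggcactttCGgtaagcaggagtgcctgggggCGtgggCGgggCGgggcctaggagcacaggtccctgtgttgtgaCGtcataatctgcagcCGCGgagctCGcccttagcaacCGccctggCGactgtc
Snrpn (chr7:60005150-60005449, minus strand): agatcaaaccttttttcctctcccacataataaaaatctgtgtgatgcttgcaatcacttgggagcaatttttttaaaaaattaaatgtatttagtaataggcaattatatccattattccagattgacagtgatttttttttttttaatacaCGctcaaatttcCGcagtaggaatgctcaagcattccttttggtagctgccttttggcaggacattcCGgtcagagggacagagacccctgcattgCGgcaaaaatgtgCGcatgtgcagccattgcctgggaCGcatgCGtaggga
Rps3a1 (chr3:86142619-86142918, minus strand): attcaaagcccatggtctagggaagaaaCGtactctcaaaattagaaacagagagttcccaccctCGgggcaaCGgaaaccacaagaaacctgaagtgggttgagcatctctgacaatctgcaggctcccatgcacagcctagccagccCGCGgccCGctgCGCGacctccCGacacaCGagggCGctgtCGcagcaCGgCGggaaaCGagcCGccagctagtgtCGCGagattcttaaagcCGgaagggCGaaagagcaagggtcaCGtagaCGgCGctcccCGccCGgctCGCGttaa
They hold 17, 7 and 27 CG (both strands read alike). CG was present in 94.6% of 32851 promoters of this length, with a median of 7, and 31.4%, 52.1% and 15.5% of them held at least as many CG as Spata7, Snrpn and Rps3a1. No methylation was measured in these cells.

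None of the regulators of the nephric lineage tested was called, where 0.209% of all genes tested were, so a count of 0 among so few genes is near the background. Of 13 further transcription factors 6 were tested and none was called by edgeR, nor had any an unadjusted p under 0.05. Their median log2 fold change was 0.07. Pax2 had the widest difference (-1.29 ± 0.61 SE, adjusted p = 0.68) at the levels given above, with overlapping groups. Gata3, a factor of the nephric duct, was at 15.9, 14.5, 15.03 and 22.7 CPM in Tet-TKO and 36.3 and 21.7 CPM in WT host members, and Sall1, a factor of kidney mesenchyme, at 35.2, 25.3, 38.6 and 28.0 CPM against 41.9 and 28.6 CPM. Of 14 genes of duct and mesenchyme signalling 5 were tested and none was called, with 2 at an unadjusted p under 0.05 (Npnt and Cited1), against 7.71% of all genes tested, and a median of -0.71. Cited1, a transcriptional co-regulator of nephron progenitors, was at 65.8, 50.6, 36.6 and 33.4 CPM in Tet-TKO and 97.7 and 78.9 CPM in WT host members (-0.91 ± 0.30 SE, adjusted p = 0.41). Each Tet-TKO value was below both WT host values, as in 11% of all genes tested.

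In the signalling pathways that pattern this tissue the count of called genes was also 0, near the background of 0.209%, and the counts at an unadjusted p under 0.05 stand beside the 7.71% of all genes. Of the retinoic acid genes 10 of 14 were tested, with 2 at an unadjusted edgeR p under 0.05 and a median of -0.14. The retinoic acid-binding protein Crabp1 was at 349, 339, 607 and 235 CPM in Tet-TKO and 614 and 614 CPM in WT host members (-0.66 ± 0.27 SE, adjusted p = 0.57). Each Tet-TKO library lay below both WT host libraries, as in 11% of all genes tested. Of 13 BMP genes 10 were tested (3 at an unadjusted p under 0.05, median -0.05), and the BMP target Id3 was at 588, 559, 550 and 796 CPM against 474 and 503 CPM. Of 16 FGF genes 11 were tested (1 at an unadjusted p under 0.05, median -0.09). The ligand Fgf8 was at 54.5, 38.6, 58.6 and 70.5 CPM in Tet-TKO and 30.7 and 34.3 CPM in WT host members (0.79 ± 0.28 SE, adjusted p = 0.46). Of 16 Wnt genes 10 were tested (2 at an unadjusted p under 0.05, median 0.09), with the Wnt antagonist Sfrp1 at 122, 145, 132 and 97.0 CPM against 86.5 and 91.5 CPM. Nodal pathway genes were mostly too low, with 2 of 8 tested and none at an unadjusted p under 0.05. None of 19 Hox genes tested was called, 3 had an unadjusted p under 0.05, and the median was -0.24. Hoxb2, at the highest level of them, was at 97.6, 107, 115 and 94.7 CPM against 92.1 and 116 CPM.

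The genes of DNA methylation were measured next, since the mutant cells lack TET activity. A 3′ count does not show whether a transcript is functional, so the Tet genes do not check the genotype. Tet1 was at 4.54, 3.62, 15.03 and 20.5 CPM in Tet-TKO and 5.58 and 20.6 CPM in WT host members, Tet2 at 13.6, 13.3, 9.52 and 7.58 against 0 and 4.58 CPM, and Tet3 at 26.1, 21.7, 35.1 and 35.6 against 27.9 and 26.3 CPM. None passed the test (adjusted p of 0.94, 0.59 and 0.92). Of 9 genes in the list 8 were tested, none was called by edgeR and 2 had an unadjusted p under 0.05, against 7.71% of all genes. Tdg, the glycosylase that removes the oxidised bases TET enzymes make, was at 23.8, 47.0, 58.1 and 54.6 CPM in Tet-TKO and 109 and 116 CPM in WT host members (-1.25 ± 0.27 SE, adjusted p = 0.10). The maintenance genes Dnmt1 and Uhrf1 overlapped between the groups, at 100.02 to 125 and 117 to 134 CPM in Tet-TKO members. Only Sox2 of 11 pluripotency genes, and none of 9 germline genes, was high enough to be tested.

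To see where the genotype difference was particular to members, it was compared with that of 2 neighbouring populations of the same libraries by an interaction test. The somite-gated cells (877) had at least 2 of Meox1, Tcf15 and Pax3 and none of the excluded genes, and the lateral plate-gated cells (8672) had Foxf1 and Hand2, Gata4 or Tbx20. Against somite-gated cells the genotype difference of 4 of 10409 genes differed by edgeR (0.0384%, 607 at an unadjusted p under 0.05). They were Ttn and the globin genes Hbb-bh1, Hba-a1 and Hba-a2. Of the Ttn UMIs of members, 646 were in Tet-TKO library 3 and 0 to 31 in each other library, and the call was lost without that library. The 3 globin calls were each lost without Tet-TKO library 1 or 3 or either WT host library. Against lateral plate-gated cells 10 of 14931 genes differed (0.067%, 826 at an unadjusted p under 0.05).

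Cdkn1c and Kdr were among those 10. Cdkn1c was at 230, 176, 371 and 273 CPM in Tet-TKO and 72.5 and 135 CPM in WT host members, but at 857, 1151, 823 and 710 CPM in Tet-TKO and 1552 and 1397 CPM in WT host lateral plate-gated cells. The direction between the groups was opposite, and the difference of the log2 fold changes was 2.07 ± 0.27 SE (edgeR adjusted p = 4.0e-05). This call held with each library left out but was lost in cells that met the rules after thinning to 5000 UMIs (0.27 ± 0.33 SE, adjusted p = 0.998), which were fewer and not all members. Kdr, the VEGF receptor of endothelium and its mesodermal precursors, was at 30.6, 18.1, 33.1 and 34.1 CPM in Tet-TKO and 5.58 and 4.58 CPM in WT host members, whereas in lateral plate-gated cells it was at 66.5, 56.5, 73.8 and 62.0 CPM against 65.0 and 57.5 CPM. The difference was 2.55 ± 0.43 SE (adjusted p = 0.0021) and was lost without either WT host library, where 2 and 4 UMIs stood behind the member values, and in thinned cells (8.21 ± 2.97 SE, adjusted p = 0.59), where WT host members had no Kdr UMI left and the fitted value is no bound. Of the other 4 endothelial markers, Cdh5 was at 0 to 0.501 CPM in Tet-TKO and 0 and 1.14 CPM in WT host members, and Pecam1 at 0 to 2.27 against 2.79 and 0 CPM. Tek and Cldn5 were at 4.01 and 5.01 CPM in Tet-TKO library 3 and at 0 in the other 5 libraries. Snrpn did not differ in either interaction test. In separate fits its log2 fold change was 1.49 in somite-gated and 1.58 in lateral plate-gated cells (edgeR adjusted p of 0.0013 and 0.0023), against 1.38 in members. Arg1 was lower in somite-gated cells too (-1.83, adjusted p = 0.0035).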

How the data were processed

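Cells of 6 E8.5 libraries (4 Tet-TKO, 2 WT host) were analysed. The authors mapped reads to mm10 with Cell Ranger (5.0.0 in the methods, 3.1.0 in the file header) and deposited unnormalised UMI counts of every gene in every barcode. The filters of the methods were applied to cells: a minimum of 1500 UMIs, no more than 30% from mitochondrial genes and no more than 35% from ribosomal protein genes. The members and gene lists were chosen with earlier results of these data known. Members were summed per library (358389 to 1996238 UMIs). edgeR 4.0.16 in R 4.3.3 (filterByExpr, TMM, glmQLFTest) called genes at a Benjamini-Hochberg adjusted p under 0.01 with a log2 fold change of at least 1 either way, with genotype alone as the design, and interactions with library as a block. The 8 rule genes were left out of calls. Shares were tested by an exact permutation over libraries. Intervals are 95% exact binomial. Doublets were the barcodes with the highest Scrublet scores (scanpy 1.11.5, Python 3.11.15), with the share marked set beforehand, and were removed only as an alternative.

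Named genes were the rule genes, the Tet genes and tdTomato, up to 12 called genes per direction outside the WT host range, called list genes, the 2 highest genes of each list, and up to 5 interaction genes per test. Other called genes, those of the lists named for their p and those with an adjusted p under 0.05 were named after their values were seen. Some genes of the lists are not reported here by name. Reads of near-identical copies can be assigned to either copy, so their counts are uncertain. Coordinates are from GENCODE vM21. On simulated sums for the comparison of members (7641 genes, 200 changed), the test recovered 17% of genes changed by a log2 fold of 1, 99.5% at 2 and 100% at 3. The changed genes were drawn from those above the median level, with the same dispersion for all genes. Recovery of lower genes was not measured. Alternatives were DESeq2 1.42.0 and its size factors, no filter, other member rules, other depths, a replicate block, and libraries left out.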

Additional observations from a re-analysis of the deposited data

Results flagged for a closer look

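In 5 of 46 values tested for it, 1 of the 4 Tet-TKO libraries lay far from the other 3, where chance gives about 1 in 20. Library 4 was high for Eif3j2 (61.4 CPM against 47.6 to 49.9), Xist (30.3 against 0 to 3.62), Id3 (796 against 550 to 588) and Lefty2, a Nodal antagonist (37.1 against 0.501 to 5.67). Library 3 was low for Snrpn (133 CPM against 152 to 155). Library 4 had only 16 members, 15 of them with a tdTomato UMI. Among members whose tdTomato UMIs matched their fraction (at least 1 in Tet-TKO, 0 in WT host), the Xist log2 fold change was -8.82 against -5.31. Other libraries lost members by this condition too, and which cells held the Xist UMIs was not tested.

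For 14 genes the genotype effect, as a log2 fold change, differed between members and a neighbouring population by edgeR. Against somite-gated cells the difference (members minus neighbour) was 8.73 for Ttn, 4.46 for Hbb-bh1, 4.45 for Hba-a1 and 4.29 for Hba-a2. Against lateral plate-gated cells it was 3.59 for Rps3a3, -3.42 for Hbb-y, 4.13 for Spink1, 2.07 for Cdkn1c, 1.73 for Apoe, 5.30 for Ttr, -1.34 for S100a10, 1.01 for Ddt, 2.55 for Kdr and -9.89 for BC018473. The last rests on 2 member UMIs in Tet-TKO library 3 and 4 in WT host library 1, and was lost without the latter. The call was also lost without Tet-TKO library 3 for Hbb-y, without WT host library 1 for Apoe and S100a10, without Tet-TKO library 2 for Ttr, and without Tet-TKO library 2 or 3 or WT host library 2 for Ddt. Those of Rps3a3, Spink1 and Cdkn1c held with each library left out, but not after thinning. With the rules applied to cells thinned to 5000 UMIs, Ddt alone of these 14 was called, and Ttn, Hba-a2 and BC018473 were too low to be tested. The difference had the opposite sign for Spink1 (-1.85), Apoe (-1.08), Ttr (-5.59), Hbb-y (1.55) and Hba-a1 (-2.17), and was 0.47 for Rps3a3, 0.27 for Cdkn1c, 0.56 for Hbb-bh1, -0.50 for S100a10, 1.81 for Ddt and 8.21 for Kdr. The cause was not tested.

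Cells meeting the gene conditions of the rule were also present at E7.5, where each genotype has 1 library and no test was made. There were 8 of 5513 Tet-TKO cells (0.145%, 95% exact interval 0.0627 to 0.286) and 8 of 7142 WT host cells (0.112%, interval 0.0484 to 0.221), at median depths of 20741 and 14193 UMIs.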

How the results depend on the processing

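The share of members was higher in Tet-TKO under each alternative but 1. With at least 3 markers, which leaves few cells, the difference was -0.00973 percentage points. Leaving out 1 library gave 0.235 to 0.505, and a replicate block over the libraries numbered 1 and 2 gave 0.103. Counting as members only thinned cells that also met the rule with all their UMIs, chosen after seeing the data, gave 0.0709. Against 16 called genes, DESeq2 gave 30, no filter on low counts 117, an adjusted p of 0.05 with no minimum fold 36, the replicate block 67, leaving out Tet-TKO libraries 3 and 4 gave 45, and leaving out 1 and 2 gave 78. Without 1 library the count was 4 to 18. Without tdTomato, Xist, haemoglobin, ribosomal protein and predicted genes it was 6, which was chosen after seeing the data, as were members with Osr1 and Lhx1 alone (14). Of the named genes, 16 were called, and 13 to 16 without 1 Tet-TKO library. With the rule on thinned cells 6 were, but only 2177 genes were high enough to be tested there. Eif3j2, Wdfy1, Spata7, Plac8, Gm15459, BC002163 and Gm10036 were not among those tested. Rps13-ps1, Snrpn and tdTomato were tested and lost the call. Interactions with somite-gated cells numbered 1 to 13 without 1 library and 0 by edgeR on thinned cells (135 at an unadjusted p under 0.05). Those with lateral plate-gated cells numbered 8 to 38 without 1 library and 9 on thinned cells, of which 1 gene was shared with the 10 in the report. Deviations of same-numbered libraries from their group mean had correlations of 0.06 and -0.16. With 2 WT host libraries, the deviation of 1 is the opposite of the other, so this cannot exclude pairing. The numbers were not taken as pairs in the main test. For single genes 678 values kept their side of the threshold, 45 lost the call, 3 gained it (Cited1 among them, without Tet-TKO libraries 1 and 2) and 0 called values changed sign. Members with 3 markers were too few per library for an expression fit, and without cells holding Sox2, Epcam or Cdh5 Tet-TKO library 4 dropped out. The cause of these changes was not tested. WT host library 1 had 24 members and 358389 UMIs, which limits low genes.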

Other observations

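Beyond the called genes, 20 genes had an edgeR adjusted p under 0.05, 7 higher and 13 lower in Tet-TKO members, and those named here were chosen after their values were seen. Wfdc2, a secreted protease inhibitor-like protein of epithelia, was at 36.3, 38.6, 35.1 and 69.0 CPM in Tet-TKO and 151 and 160 CPM in WT host members (log2 fold change -1.77 ± 0.27 SE, adjusted p = 0.011). Igfbp2, which binds insulin-like growth factors, was at 54.5, 73.5, 90.7 and 47.7 CPM against 159 and 206 CPM (-1.44 ± 0.24 SE, adjusted p = 0.022). The microfibril gene Mfap2 was at 23.8, 21.7, 17.5 and 28.0 CPM against 67.0 and 75.5 CPM, and the collagen gene Col9a1 at 3.40, 6.03, 3.01 and 3.03 CPM against 22.3 and 34.3 CPM. In each of these 4 genes all Tet-TKO libraries were below both WT host libraries, as in 11% of all genes tested. The genes were chosen by their p, which favours such an order, so it adds no support.

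Among the higher ones were Kdr, given above (edgeR adjusted p = 0.031), and the Notch target Hes1. Hes1 was at 64.7, 61.5, 89.2 and 95.5 CPM in Tet-TKO and 36.3 and 19.5 CPM in WT host members (1.65 ± 0.31 SE, adjusted p = 0.048). Of the 186 members with Osr1 and Lhx1 alone, 44 had a Kdr UMI. They were 10 of 36, 6 of 54, 16 of 28 and 8 of 11 in the Tet-TKO libraries. In the WT host libraries they were 1 of 18 and 3 of 39. These cells were not thinned, and depth raises such counts. Members of Tet-TKO libraries 3 and 4 had medians of 43773 and 85234 UMIs, against 12446 to 20756 in the other libraries. Cells of a library are not replicates, and these counts were not tested. A Kdr UMI was present in 1 of the 26 members with Pax8 and 1 of the 38 with Wt1 and without Pax8.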
